A study of Mus musculus with 18 samples.

Results

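The transcripts of 8 secreted matrix proteins were followed with every probe that the array table gives them: tenascin C (TNC), fibronectin (FN1), thrombospondins 1 and 2 (THBS1 and THBS2), SPARC, periostin (POSTN) and nidogens 1 and 2 (NID1 and NID2). The genes were chosen with earlier results of these data known, so counts of called members beside shares of all probes are descriptions only. All probes of these genes were taken by gene name, whatever their values, which gave 22 of the 45281 probes in the table. Of these, 18 were above background on at least 3 of the 18 arrays and were tested together with all other such probes, 22987 in all. The other 4 were below background on all 18 arrays: ILMN_2454497 and ILMN_1251943 of TNC, ILMN_1222059 of THBS1 and ILMN_1216882 of POSTN. All 8 genes kept at least 1 tested probe. The study asked how FGF2 and BMP4 steer murine embryonic stem (ES) cells toward endothelium on a layer of PA6, a stromal cell line that supports their differentiation. The cultures held ES cells on PA6 monolayers (ES/PA6 co-cultures) or no cells but PA6 (PA6 mono-cultures), and each was kept for 3 days in serum-free medium without growth factors (-GFs), with recombinant FGF2 at 20 ng/ml or with recombinant BMP4 at 10 ng/ml, with 3 replicates in each of the 6 groups. These doses are the labels', and for BMP4 the study's methods give a lower one for cultures grown on slides. In a co-culture both cell types had received the factor, and their RNA was read together. The ES cells carried an EGFP knock-in at the τ locus and had been kept on growth-arrested embryonic fibroblasts before they were seeded on PA6.

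Levels are log2 intensities after background correction and quantile normalization, and a value above background means a detection p under 0.05. A probe was called when its Benjamini-Hochberg adjusted p in limma was under 0.1 and its log2 fold change was over 1 in size, the thresholds of the study's methods. The labels describe 1 well per condition for each biological replicate. Between 17125 and 20412 probes were detected per array. All 9 ES cell markers with a tested probe were detected on all 3 arrays of every co-culture group, with summed linear levels of 45000 to 74300, against 792 to 957 in the PA6 mono-cultures, where SOX2, TDGF1, UTF1, LIN28 and FGF4 were below background on every array. The 10 stromal markers had summed levels between 59300 and 93500 on the co-culture arrays, against 160000 to 192000 on those of the mono-cultures. Of the 9 ES cell markers, 2 were nevertheless detected on all 3 arrays of each mono-culture group. Without growth factors these were POU5F1 and DNMT3B. Each culture type thus carried the markers of its labelled cells, but not all ES cell markers were absent from PA6 alone.

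Matricellular proteins are secreted into the extracellular matrix and act there on adhesion, growth factor access and matrix assembly more than as structural fibres. Tenascin C is a large oligomeric glycoprotein that weakens the adhesion of cells to fibronectin and is made in embryonic mesenchyme, at wounds and in stem cell niches. Thrombospondins 1 and 2 restrain angiogenesis through the CD36 and CD47 receptors, and thrombospondin 1 also activates latent TGFβ. SPARC binds collagen and calcium, periostin binds collagen and tenascin C, fibronectin forms the fibrils that integrins assemble, and the nidogens link laminin to type IV collagen in basement membranes.

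The sequences before the transcription starts are shown for the gene that rose with FGF2 in both culture types (Tnc), the gene whose FGF2 change differed between them (Thbs2) and a gene that fell with FGF2 in PA6 mono-cultures (Postn). Each is the 250 bases before the most upstream RefSeq start in the promoter table of build GRCm38.p6, in lower case, with motif matches in capitals. The motifs searched on both strands were the AP-1 site TGANTCA, the ETS core CCGGAA, the TEAD site GGAATG, the TATA box TATAAA, the GC box GGGCGG and the octamer ATGCAAAT.
Tnc, chr4:64047016-64047265, minus strand: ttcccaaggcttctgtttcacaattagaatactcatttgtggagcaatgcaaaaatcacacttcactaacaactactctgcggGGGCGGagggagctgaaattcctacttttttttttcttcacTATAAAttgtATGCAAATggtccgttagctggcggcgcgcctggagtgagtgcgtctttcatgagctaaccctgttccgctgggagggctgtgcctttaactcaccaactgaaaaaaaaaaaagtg
Thbs2, chr17:14694263-14694512, minus strand: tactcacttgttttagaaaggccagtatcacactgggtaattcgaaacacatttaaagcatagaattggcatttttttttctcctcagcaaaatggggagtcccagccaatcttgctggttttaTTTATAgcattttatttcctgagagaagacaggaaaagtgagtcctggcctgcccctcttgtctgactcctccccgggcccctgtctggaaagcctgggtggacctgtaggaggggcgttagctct
Postn, chr3:54359017-54359266, plus strand: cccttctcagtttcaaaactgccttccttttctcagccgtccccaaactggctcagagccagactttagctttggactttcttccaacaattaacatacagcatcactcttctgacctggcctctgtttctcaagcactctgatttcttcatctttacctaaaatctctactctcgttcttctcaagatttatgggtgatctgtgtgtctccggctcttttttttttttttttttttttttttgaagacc
The Tnc window held a GC box from 167 to 162 bases before the start, a TATA box from 126 to 121 bases before it and, next to that, an octamer from 116 to 109 bases before it. The Thbs2 window held the TATA letters on the opposite strand, from 126 to 121 bases before the start, and the Postn window held none of the 6 motifs. Among 32851 promoter windows of 250 bases, 32.7% held the GC box, 12.4% the TATA box, 1.6% the octamer, 12% the ETS core, 12.6% the TEAD site and 6.75% the AP-1 site. The window of a further Postn start downstream, not printed, held a TATA box from 26 to 21 bases before it. A further Tnc start downstream, its window also not printed, had the same motifs at other distances. The GC box lay from 246 to 241 bases before that start and the TATA box from 205 to 200. The octamer lay from 195 to 188 bases before that start. The table also holds windows of Sparc, with none of the motifs, and of Nid1, with an ETS core, an overlapping TEAD site and a GC box. These matches describe the letters of the windows and were not tied to the measured changes by any test.

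Of the 18 tested probes, 4 were called for FGF2 against -GFs in the ES/PA6 co-cultures, 3 higher and 1 lower, against 3.03% of all tested probes. These 4 probes belong to 2 genes, since the 3 higher ones are all of TNC and the lower one is of THBS1. Of the 3 TNC probes, ILMN_2485085 was detected on 4 arrays, all with FGF2. It so entered the test only through the group where it was high, and its call supports nothing further. The median log2 fold change of the 18 was 0.37, beside -0.02 over all tested probes. In the PA6 mono-cultures 5 were called for FGF2, 3 higher and 2 lower, against 5.33% of all probes, with medians of 0.13 and 0.00. Those 5 belong to 4 genes. BMP4 gave 0 called member probes in the co-cultures, where 0.692% of all probes were called by limma, and 0 in the mono-cultures, where 1.31% were called. At an unadjusted p under 0.05, 4 of the 18 passed for BMP4 in the co-cultures, and 4 of the 18 did in the mono-cultures. The share of all tested probes at that unadjusted p is not given, here or for the lists below. Such counts therefore show neither an excess nor a lack. FGF2 against BMP4 called 5 member probes of 3 genes in the co-cultures, with 2.54% of all probes called and TNC ILMN_2485085 among the 5. In the mono-cultures it called 5 member probes of 4 genes, with 5.69% called. FGF2 against -GFs, BMP4 against -GFs and FGF2 against BMP4 share arrays within a culture type, so their values are not independent of each other.

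**Figure D1:**
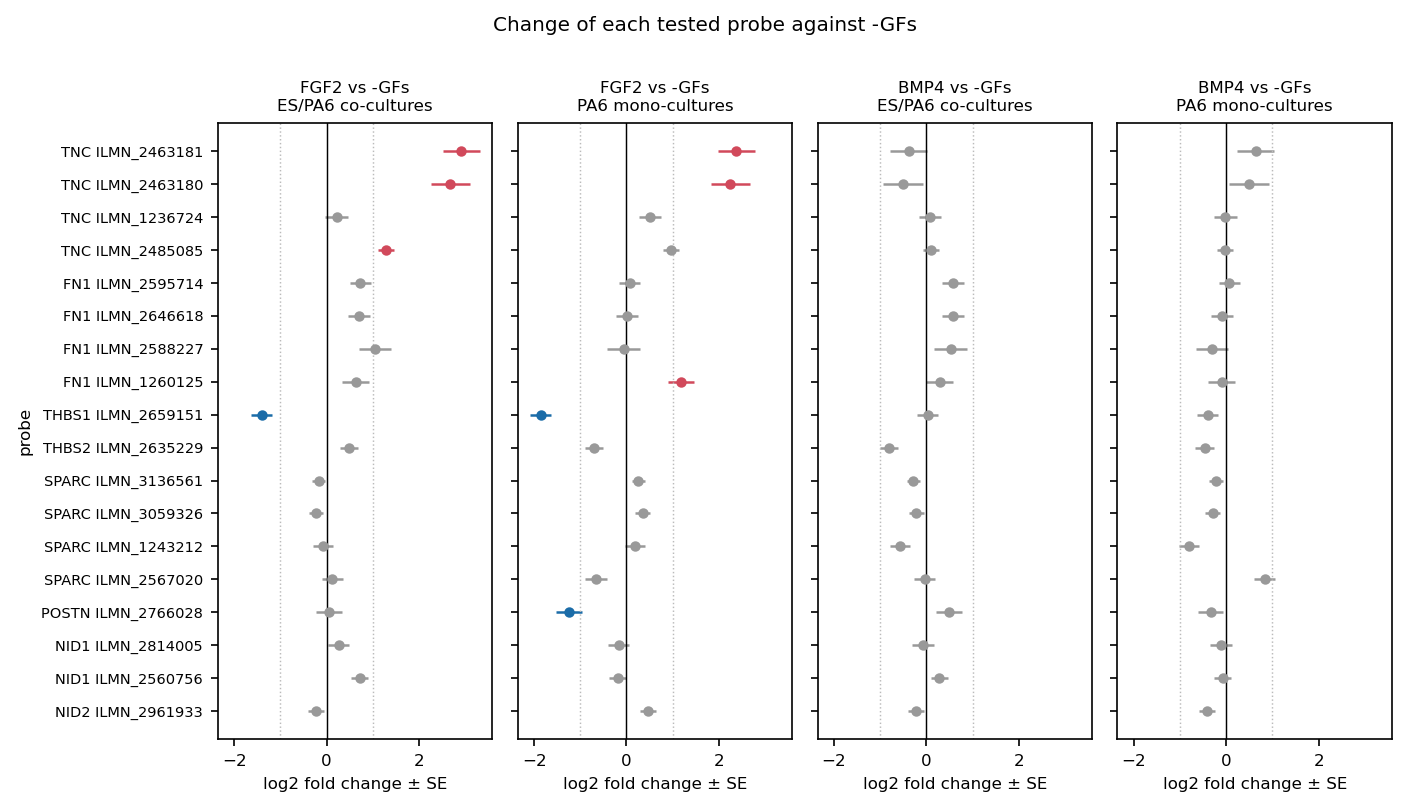
Log2 fold change against -GFs (x axis, with SE) of each of the 18 tested probes (y axis), for each factor and culture type. Red points were called higher, blue points called lower and grey points not called, and dotted lines mark a log2 fold change of 1 in either direction. The TNC probes ILMN_2463181 and ILMN_2463180 lie at 2.92 and 2.68 in the FGF2 co-cultures, and no point in the BMP4 panels is coloured.

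Tenascin C rose with FGF2 in both culture types and was the member with the highest fold change against -GFs. On probe ILMN_2463181 the ES/PA6 co-cultures read 7.81, 7.42 and 8.18 without growth factors, 11.05, 10.78 and 10.32 with FGF2, and 6.86, 7.16 and 8.25 with BMP4. The FGF2 arrays lay above all others of the co-cultures, and the BMP4 and -GFs arrays overlapped. FGF2 raised it by a log2 fold change of 2.92 (SE 0.398, n = 3 per group, limma adjusted p = 0.000298), which is 7.55-fold. In the PA6 mono-cultures the same probe read 8.49, 7.41 and 6.98 without growth factors, 9.62, 10.36 and 10.06 with FGF2, and 8.85, 8.03 and 7.93 with BMP4. There too the FGF2 arrays stood apart from both other groups, with a log2 fold change of 2.38 against -GFs (SE 0.398, limma adjusted p = 0.000582). Against BMP4 the FGF2 level was higher on the log2 scale by 3.29 with ES cells present, and by 1.74 in PA6 alone (limma adjusted p = 0.000155 and 0.00655). The FGF2 changes of the 2 culture types differed by 0.53 (SE 0.564, limma adjusted p = 0.631), so no difference in the size of the rise passed the test.

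The 6 TNC probes did not give the same picture. ILMN_2463180 moved with ILMN_2463181 (r = 0.992 over the 18 arrays after removal of the culture type means, a description of arrays that share their groups) and rose by 2.68 in the co-cultures (SE 0.43, limma adjusted p = 0.0011), with a rise of 2.25 in the mono-cultures (SE 0.43, limma adjusted p = 0.00184). ILMN_2485085 was detected on all 3 FGF2 arrays of the co-cultures, at 6.64, 6.37 and 6.10, and on none of the 3 arrays without growth factors, which gives, as a description, a level at least 1.4-fold higher with FGF2. With the cubic spline, and equally with quantile normalization of uncorrected signals, its log2 fold change there was 0.75 and under the fold threshold. In the mono-cultures it was detected on 1 FGF2 array only, and its log2 fold change of 0.96 was under the fold threshold too. ILMN_1236724, detected on 9 of the 18 arrays, read from 5.74 to 6.84 with overlapping groups and was not called for FGF2, at 0.22 in the co-cultures (limma adjusted p = 0.75) and at 0.51 in the mono-cultures (limma adjusted p = 0.198). ILMN_2454497 and ILMN_1251943 were below background everywhere, between 4.75 and 5.48, and carry only a bound. The transcript positions of the probes were not analysed here, so which transcripts each probe reads is unknown.

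**Figure D2:**
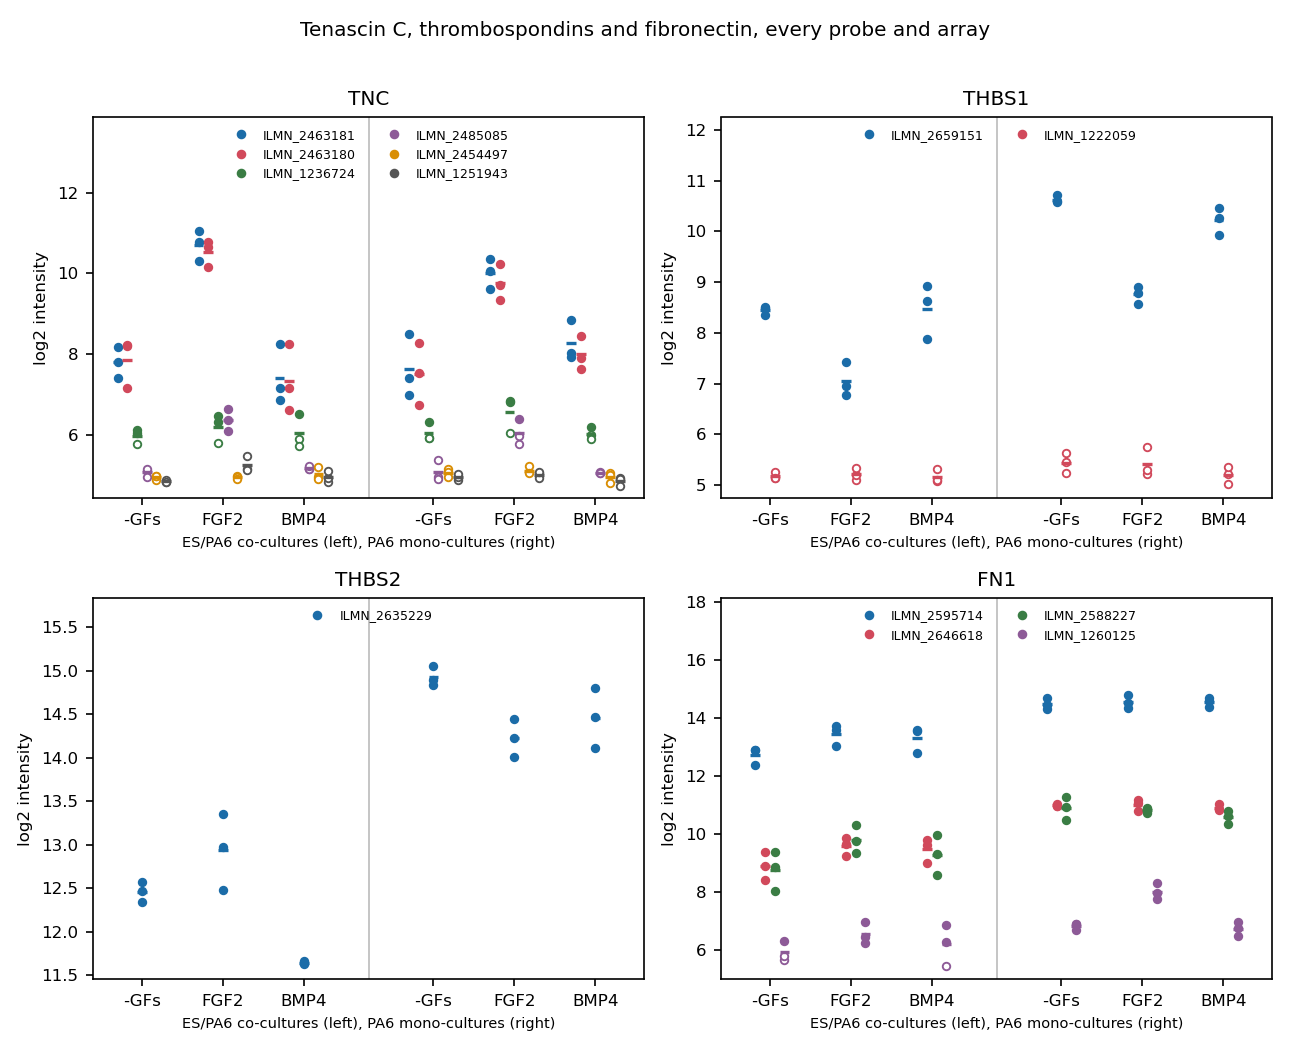
Log2 intensity (y axis) of every TNC, THBS1, THBS2 and FN1 probe on each of the 18 arrays, by group (x axis, ES/PA6 co-cultures left of the grey line and PA6 mono-cultures right of it). Filled points were above background, open points below it, and bars are the means of 3 arrays. The TNC probes ILMN_2463181 and ILMN_2463180 are raised on every FGF2 array, while THBS1 ILMN_2659151 is lowest on the FGF2 arrays of each culture type.

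Thrombospondin 1 fell with FGF2 in both culture types. Probe ILMN_2659151 read 8.36, 8.49 and 8.51 in the co-cultures without growth factors, 6.96, 6.77 and 7.43 with FGF2, and 7.88, 8.63 and 8.92 with BMP4. The 3 FGF2 arrays were the lowest of the 9, a log2 fold change of -1.40 against -GFs (SE 0.226, limma adjusted p = 0.00117). In the mono-cultures the levels were 10.71, 10.59 and 10.57 without growth factors, 8.91, 8.57 and 8.79 with FGF2, and 10.47, 9.93 and 10.27 with BMP4. FGF2 lowered it there by a log2 fold change of -1.86 (SE 0.226, limma adjusted p = 2.8e-05), a 3.64-fold fall. BMP4 moved it by 0.03 in co-culture and by -0.40 in mono-culture, neither of which was called (limma adjusted p = 0.99 and 0.551). FGF2 against BMP4 gave -1.42 in the co-cultures, and -1.47 was found in the mono-cultures (limma adjusted p = 0.00152 and 0.000247). The FGF2 fall in the co-cultures passed the fold threshold only with background correction, and without it the log2 fold change was -0.95 (limma adjusted p = 0.00131).

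Thrombospondin 2, read by 1 probe (ILMN_2635229), was higher with FGF2 than with BMP4 in the co-cultures. There it read 12.47, 12.57 and 12.34 without growth factors, 13.36, 12.98 and 12.48 with FGF2, and 11.64, 11.63 and 11.67 with BMP4. The mean order was FGF2, then -GFs, then BMP4. The FGF2 and -GFs arrays overlapped (log2 fold change 0.48, SE 0.2, limma adjusted p = 0.215), while the BMP4 arrays lay below both other groups. The BMP4 change of -0.81 passed the adjusted p (SE 0.2, limma adjusted p = 0.0793) but not the fold threshold, and FGF2 against BMP4 was called at 1.29 (SE 0.2, limma adjusted p = 0.00123). In the mono-cultures the levels were 14.89, 14.84 and 15.06 without growth factors, 14.45, 14.01 and 14.23 with FGF2, and 14.47, 14.11 and 14.80 with BMP4. All 6 treated arrays lay below the 3 untreated ones, by -0.70 with FGF2 (limma adjusted p = 0.0261, under the fold threshold) and by -0.47 with BMP4 (limma adjusted p = 0.333). The FGF2 change of the co-cultures minus that of the mono-cultures was 1.18 (SE 0.283, limma adjusted p = 0.0142) and was called. Without ES/PA6 FGF2 replicate 1, the highest of its group, it was 0.98 and under the fold threshold.

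Fibronectin had 4 tested probes, 3 of them detected on all 18 arrays and 1, ILMN_1260125, on 15. ILMN_2595714 read 12.91, 12.88 and 12.36 in the co-cultures without growth factors and 13.72, 13.59 and 13.02 with FGF2, which did not overlap, and 13.57, 13.55 and 12.78 with BMP4. Its FGF2 change was 0.73 (SE 0.231, limma adjusted p = 0.0834), under the fold threshold. ILMN_2646618 gave 0.70 (limma adjusted p = 0.107), and ILMN_2588227 gave 1.05 (limma adjusted p = 0.106). When the replicate numbers entered the fit as blocks inside each culture type, ILMN_2588227 was called at the same 1.05 (limma adjusted p = 0.000521). In its 3 replicate sets FGF2 was higher than -GFs by 0.95, 0.90 and 1.31. In the co-cultures BMP4 moved ILMN_2595714, ILMN_2646618 and ILMN_2588227 by 0.58, 0.58 and 0.53. None was called (limma adjusted p = 0.352, 0.365 and 0.705). FGF2 against BMP4 there was 0.14, 0.12 and 0.52, not called and with overlapping arrays (limma adjusted p = 0.837, 0.877 and 0.514). In the mono-cultures these 3 probes lay within 0.07 of no change with FGF2 (limma adjusted p = 0.92 to 0.994). Probe ILMN_1260125 read 6.87, 6.90 and 6.67 without growth factors and 7.75, 8.29 and 7.94 with FGF2 in the mono-cultures, where it was called at 1.18 (SE 0.288, limma adjusted p = 0.0108). In the co-cultures it was detected on 1 of the 3 arrays without growth factors and on all 3 with FGF2, and its change of 0.63 was not called (limma adjusted p = 0.274). With quantile normalization and no background correction its mono-culture change was 0.75, under the fold threshold.

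SPARC was read by 4 probes, detected on all 18 arrays, of which 1 went against the others in the mono-cultures. In the co-cultures FGF2 moved the 4 probes by -0.23 to 0.12 and BMP4 by -0.57 to -0.04, and none was called. In the mono-cultures ILMN_3136561 read 15.10, 15.01 and 14.97 without growth factors, 15.45, 15.03 and 15.39 with FGF2, and 14.76, 14.80 and 14.87 with BMP4. ILMN_2567020 read 9.30, 8.81 and 8.72 without growth factors, 8.19, 8.49 and 8.15 with FGF2, and 9.95, 9.33 and 10.04 with BMP4. On the first of these probes the BMP4 arrays were the lowest, and on the second the FGF2 arrays were. FGF2 against BMP4 in the mono-cultures was called on ILMN_2567020 at -1.49 (SE 0.229, limma adjusted p = 0.00024). It was 0.48, 0.64 and 0.99 on ILMN_3136561, ILMN_3059326 and ILMN_1243212, with limma adjusted p = 0.0361, 0.013 and 0.0054 but sizes under the fold threshold. For BMP4 against -GFs the opposite signs were 0.83 on ILMN_2567020 (limma adjusted p = 0.0786) and -0.80 on ILMN_1243212 (limma adjusted p = 0.0747), both under the fold threshold. Over the 18 arrays, after removal of the culture type means, ILMN_2567020 correlated with the other probes at -0.593, -0.755 and -0.48, and those 3 with each other at 0.562 to 0.861, as a description of arrays that share their groups. No single direction for SPARC can be given from these probes.

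Periostin was near background. ILMN_2766028 was below background on all 9 arrays of the co-cultures, between 5.05 and 5.69. In the mono-cultures it read 7.54, 7.04 and 7.0 without growth factors, 6.73, 5.27 and 5.84 with FGF2, and 7.29, 6.50 and 6.78 with BMP4. The FGF2 arrays, of which 1 was above background, lay below the untreated ones, with a log2 fold change of -1.25 (SE 0.278, limma adjusted p = 0.00589), and this was called. Without PA6 FGF2 replicate 2 it was -0.91 and under the fold threshold, and without background correction it was -0.66. The BMP4 change was -0.34 (limma adjusted p = 0.752).

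No nidogen probe was called for either factor against -GFs. NID1 ILMN_2814005 read 11.02, 11.49 and 10.60 in the co-cultures without growth factors, 11.53, 11.51 and 10.85 with FGF2, and 10.85, 11.37 and 10.70 with BMP4, with all groups overlapping. NID1 ILMN_2560756 read 7.47, 7.29 and 6.92 without growth factors and 8.20, 7.90 and 7.72 with FGF2, a change of 0.72 (SE 0.187, limma adjusted p = 0.0311) that was under the fold threshold. In the mono-cultures the FGF2 changes of these probes were -0.17 and -0.19 (limma adjusted p = 0.733 and 0.611). NID2 ILMN_2961933 read 13.43, 13.28 and 13.02 in the mono-cultures without growth factors, 13.91, 13.33 and 13.89 with FGF2, and 12.87, 12.73 and 12.91 with BMP4. Its FGF2 and BMP4 arrays did not overlap, and their difference of 0.87 (SE 0.173, limma adjusted p = 0.00222) was under the fold threshold. In the co-cultures NID2 with FGF2 and with BMP4 differed by 0.00 (limma adjusted p = 0.999).

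**Figure D3:**
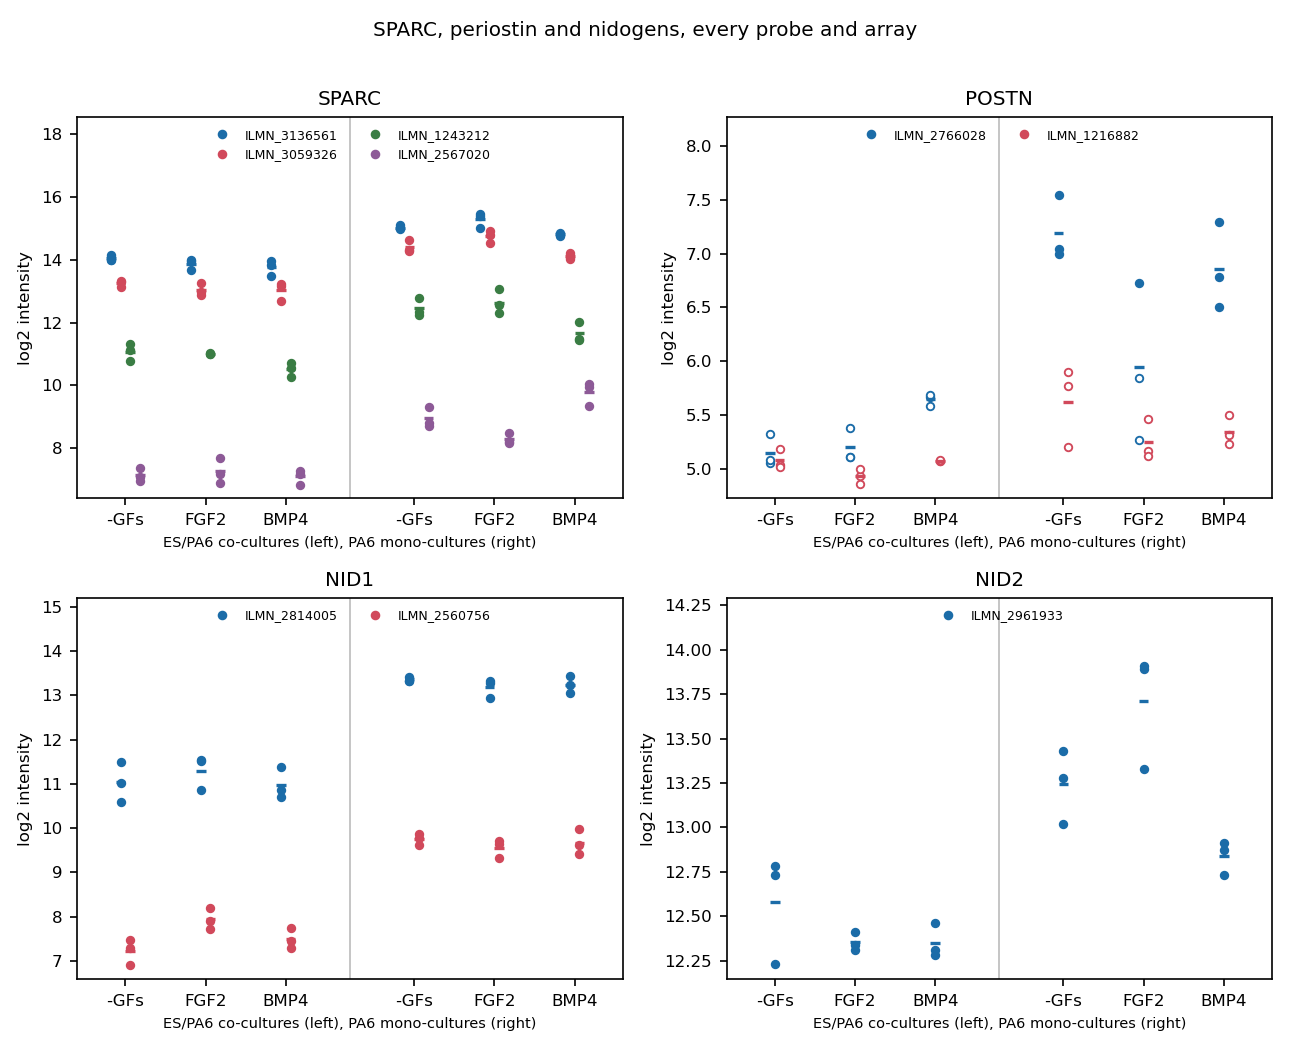
Log2 intensity (y axis) of every SPARC, POSTN, NID1 and NID2 probe on each of the 18 arrays, by group (x axis, ES/PA6 co-cultures left of the grey line and PA6 mono-cultures right of it). Filled points were above background, open points below it, and bars are the means of 3 arrays. In the mono-cultures SPARC ILMN_2567020 is highest with BMP4, at 9.33 to 10.04, where ILMN_1243212 is lowest, and POSTN is below background on all co-culture arrays.

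Without growth factors most members were lower in the ES/PA6 co-cultures than in PA6 alone, and no TNC probe was called. In all, 11 of the 18 probes, of 6 genes, were called between co-cultures and mono-cultures, where 39.2% of all tested probes were called. All 11 were lower in the co-cultures, a direction called for 20.4% of all tested probes, and the member median was -1.57 beside -0.13 over all probes. THBS2 was lower by -2.47 (SE 0.2, limma adjusted p = 1.64e-08), THBS1 by -2.17 (SE 0.226, limma adjusted p = 3.18e-07), and the NID1 probes by -2.53 and -2.31 (limma adjusted p = 5.68e-09 and 2.19e-07). The 3 FN1 probes detected on all arrays were lower by -1.77 to -2.15, and the called SPARC probes by -1.15 to -1.81. POSTN, below background in the co-cultures, was at least 2.48-fold lower, as a description. Its probe was detected on 7 arrays, all of mono-cultures. It so entered the test only through the culture type where it was high, and its place among the 11 supports nothing further. NID2 at -0.66, SPARC ILMN_3136561 at -0.98 and FN1 ILMN_1260125 at -0.91 had adjusted p-values under 0.1 and sizes under the fold threshold. TNC differed by 0.17 on ILMN_2463181 (SE 0.398, limma adjusted p = 0.718) and by 0.34 on ILMN_2463180 (SE 0.43, limma adjusted p = 0.504), with overlapping arrays. In these bulk samples, fewer cells of a type and less RNA per cell cannot be told apart. Of the 10 stromal markers, 8 were called lower in the same comparison, with a list median of -1.59 and VCAM1, an adhesion molecule of stroma, lowest at -2.15 (limma adjusted p = 1.77e-08). Without growth factors their summed level was 69300 to 93500 in the co-cultures, against 172000 to 178000 in PA6 alone, and none of the 10 was below background on all arrays of a group. Their part in the members' difference was not tested.

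**Figure D4:**
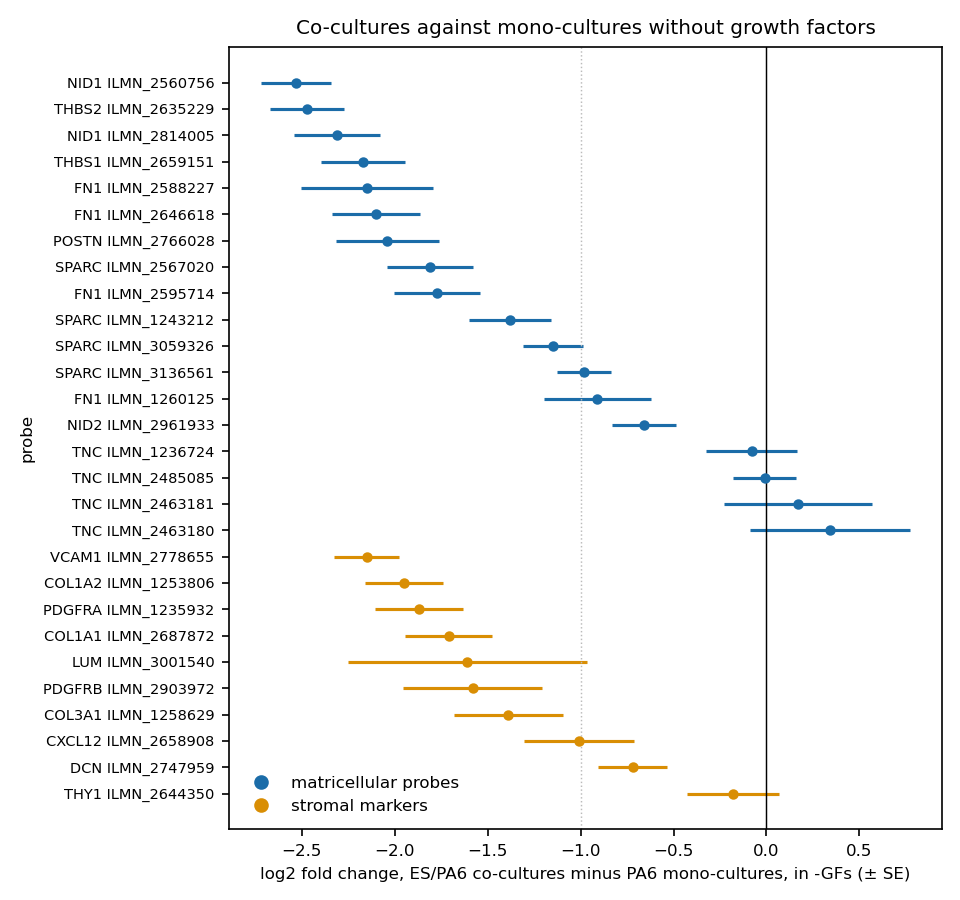
Log2 fold change of the co-cultures against the mono-cultures without growth factors (x axis, with SE) for the 18 tested member probes (blue) and the 10 stromal markers (orange), each named on the y axis. The dotted line marks a log2 fold change of -1. The TNC probes lie around 0 while THBS2, NID1, THBS1 and the 3 FN1 probes detected on all arrays lie at -1.77 or lower.

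The FGF2 change differed between the culture types on 2 of the 18 probes, against 7.43% of all tested probes: THBS2, as above, and POSTN ILMN_2766028 at 1.29 (SE 0.394, limma adjusted p = 0.0485). The POSTN probe was below background on all 9 arrays of the co-cultures and could not fall there, so its value restates the fall in the mono-cultures and shows no difference in response. It was not called without PA6 -GFs replicate 1 (1.12, limma adjusted p = 0.123) or without PA6 FGF2 replicate 2 (0.96, limma adjusted p = 0.115). NID1 ILMN_2560756 at 0.90 (limma adjusted p = 0.0405) and NID2 at -0.70 (limma adjusted p = 0.0852) were likewise under the fold threshold. FN1 ILMN_2588227 at 1.11 was not called (limma adjusted p = 0.188), and with the replicate number as a block it was (limma adjusted p = 0.00312). For BMP4, 0 member probes were called in limma for a difference between culture types, 1 had an unadjusted p under 0.05, and 0.518% of all probes were called.

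Other genes of the same functions were read by the probe with the largest mean per gene. Of 32 further matricellular genes 19 had a tested probe. In the FGF2 mono-cultures 6 were called higher and 1 lower, where 5.33% of all tested probes were called, with a list median of 0.76 beside 0.00 over all probes. Osteopontin (SPP1), an integrin-binding phosphoprotein, rose by 5.01 (SE 0.582, limma adjusted p = 1.86e-05), TGFBI, a collagen-binding relative of periostin, by 2.71 (SE 0.365, limma adjusted p = 7.73e-05), and CTGF by 2.11 (SE 0.3, limma adjusted p = 0.000126). In the FGF2 co-cultures, with 3.03% of all probes called, only SPP1 of the 19 was called, at 1.95 (SE 0.582, limma adjusted p = 0.063), and the list median was -0.02. BMP4 called 0 of the 19 in the co-cultures by limma, where 4 had an unadjusted p under 0.05. In the mono-cultures it called ECM1 alone, beside 1.31% of all probes, higher by 1.25 (limma adjusted p = 0.00393).

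Among receptors of these proteins, 15 of 21 genes had a tested probe and limma called none for FGF2 in the co-cultures, where 6 had an unadjusted p under 0.05. In the FGF2 mono-cultures 3 of the 15 rose, beside 5.33% of all probes called in either direction: LRP8 from below background by at least 1.1-fold (limma adjusted p = 0.0105), the fibronectin co-receptor syndecan 4 (SDC4) by 1.27 (SE 0.12, limma adjusted p = 2.16e-06) and VLDLR from below background by at least 1.34-fold (limma adjusted p = 0.00212). BMP4 called no receptor in limma, with 1 of the 15 at an unadjusted p under 0.05 in each culture type. Of 15 basement membrane partners of the nidogens, 14 had a tested probe. In the FGF2 co-cultures 2 of the 14 were called, beside 3.03% of all probes. COL15A1, a basement membrane zone collagen, rose by 1.28 (limma adjusted p = 0.0191) and the laminin chain LAMA1 by 1.0 (limma adjusted p = 0.0212), just over the fold threshold. In the mono-cultures 1 of the 14 was called for each factor, beside 5.33% of all probes for FGF2 and 1.31% for BMP4. The laminin chain LAMB2 fell by 1.12 with FGF2 (limma adjusted p = 0.00112), and LAMA1 rose with BMP4 from below background, by at least 1.18-fold (limma adjusted p = 0.0156).

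Of 22 genes of matrix assembly and turnover 18 had a tested probe. The gelatinase MMP9 rose with FGF2 by 1.82 in the co-cultures (SE 0.284, limma adjusted p = 0.000866), and the mono-cultures showed a rise of 2.01 (SE 0.284, limma adjusted p = 0.000121). In the mono-cultures 5 of the 18 rose with FGF2 and none fell, beside 5.33% of all probes called. In the co-cultures MMP9 was the only one of the 18 called, beside 3.03%. MMP3, which cleaves several matrix proteins, was below background in the mono-cultures without growth factors. It was at least 6.23-fold higher there with FGF2 (limma adjusted p = 0.0322). ADAMTS1, a protease that cleaves proteoglycans, rose with FGF2 in the mono-cultures by 1.99 (SE 0.226, limma adjusted p = 1.47e-05). BMP4 called none of the 18 in limma in either culture type, where 5 had an unadjusted p under 0.05 with ES cells and 2 without.

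Adipocyte markers moved with the factors in the stroma. In the PA6 mono-cultures the 7 markers summed to 10300 to 13400 without growth factors, 1580 to 1870 with FGF2 and 26700 to 59100 with BMP4. In the co-cultures the sums were 2400 to 4730, 1740 to 2000 and 6450 to 28500. FABP4 was below background in all groups, PLIN in all but the BMP4 groups, and CIDEC in both FGF2 groups. Of the 6 tested, 4 fell with FGF2 in the mono-cultures, with a list median of -3.70 and 5.33% of all probes called, and 2 rose with BMP4, with a list median of 1.46 and 1.31% of all probes called. The stromal list changed less with FGF2, with list medians of -0.41 in co-culture and -0.43 in mono-culture, beside -0.02 and 0.00 over all probes. Of its 10 genes only THY1 was called, at -1.08 in co-culture and -1.11 in mono-culture (limma adjusted p = 0.0161 and 0.00649). With BMP4 only COL3A1 of the 10 was called, lower in both culture types, with list medians of -0.32 and -0.26. BMP4 called 0.692% and 1.31% of all probes there. ES cell markers moved with FGF2 in the co-cultures, where their summed level was 66700 to 74300 without growth factors, 45000 to 52300 with FGF2 and 57400 to 64700 with BMP4. Of the 9 tested, 4 were called for FGF2, beside 3.03% of all probes, and the list median was -0.10. NANOG and ZFP42, of the pluripotency network, rose by 1.25 and 1.19 (limma adjusted p = 0.0356 and 0.0505), while the RNA-binding protein LIN28 and the DNA methyltransferase DNMT3B fell, at -1.63 and -2.20 (limma adjusted p = 2.87e-05 and 2.01e-07). The part of these shifts in the co-culture changes of TNC and THBS1 was not tested. Of the markers of other lineages that the co-cultures could hold, limma called none of 6 endothelial, 3 neural and 4 extraembryonic endoderm genes for FGF2 in the co-cultures, with 2, 0 and 0 of them at an unadjusted p under 0.05. With BMP4 the neural marker ZIC1 was at least 5.24-fold lower there (limma adjusted p = 0.0604). It was the only 1 of the 3 neural genes called, beside 0.692% of all probes, and the neural list median was -1.85. For BMP4 limma called none of the endothelial and extraembryonic endoderm genes in the co-cultures. Whether the fall in adipocyte markers has a part in the falls of THBS1 and POSTN or in the rise of TNC with FGF2 was not tested.

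For TNC, THBS1, FN1 and POSTN, the members with a call for a factor against -GFs, the genes whose levels followed their probe of largest mean most closely, by Pearson's r over the 18 arrays after removal of the culture type means, were sought among 16445 other genes. For TNC these were PLA2G7 (r = 0.924), PRKCSH (r = 0.893) and the metalloprotease inhibitor TIMP1 (r = 0.886). For THBS1 they were OGN (r = 0.955) and PRELP (r = 0.953), both small leucine-rich proteoglycans, and CTPS2 (r = 0.933). For FN1 on ILMN_2595714, itself not called for either factor, they were DLX1 (r = 0.863), SCT (r = 0.855) and CASP14 (r = 0.84), and for POSTN NDRL (r = 0.882), NDRG1 (r = 0.876) and 6720426B09RIK (r = 0.874). NDRL and NDRG1 are separate names in the array table, and whether they stand for the same gene was not checked. The arrays share their groups and treatments, so these r values describe likeness only.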

How the data were processed

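The authors hybridised biotin-labelled cRNA to Illumina MouseWG-6 v2.0 bead arrays, and GenomeStudio 2011.01 is named in the submitters' processing notes. The deposited intensity values are non-normalized, linear bead summaries from 55.5 to 72879, each with a deposited detection p. A further 5 stray lines were left out, and the number of columns that matched no sample was 0. The study's methods name cubic spline normalization and 1 probe per gene, which were alternatives here.

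The neqc method of limma 3.58.1 (R 4.3.3) corrected background with negative controls inferred from the detection p, added an offset of 16, quantile normalized and took log2. The offset understates the changes of dim probes. A probe was kept if 3 or more arrays gave it a detection p under 0.05. A single limma fit of 6 group means over 18 arrays gave all comparisons and the interactions, adjusted over all 22987 probes. With 3 arrays per group, whose number limits the precision, a permutation of 3 against 3 gives no p under 0.1. Where a probe was undetected on all arrays of a group, "at least" sets the mean of the brighter group against, per dim array, the larger of the probe's own value and the lowest value detected on that array. The fit was tested on simulated data.

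Every probe of a member is reported. From the lists of other genes by function, the 3 called genes with the largest changes per comparison with -GFs are named. Cell type markers are given by counts and summed levels, and not every called marker or comparison is named. Members and lists were chosen with earlier results of these data known, so their counts beside the shares of all probes are descriptions only. Genes carry the names printed in the array table, some of which are old. Same-numbered arrays of the ES/PA6 co-cultures deviated together (r = 0.318 to 0.503 in all 9 pairs), and the numbers were taken to pair them. Values for differently numbered arrays are not given here. In the PA6 mono-cultures the 9 values were 0.071 to 0.162, and across culture types the 27 were -0.0263 to 0.184. The main fit did not use the pairing of the co-cultures, so differences between replicate sets stay in the spread behind its tests. No arrays held identical values (0 pairs). Alternatives were other normalizations, detection filters, thresholds, fits on fewer arrays, a variance trend, array weights, replicate blocks and leaving out each array.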

Additional observations from a re-analysis of the deposited data

Results flagged for a closer look

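The FGF2 change of THBS2 (ILMN_2635229) differed between culture types by a test of the difference itself, with an interaction of 1.18 on the log2 scale (limma adjusted p = 0.0142). The mean level rose by 0.48 with FGF2 in the co-cultures, which was not called, and fell by 0.70 in the mono-cultures, under the fold threshold. The same test gave 1.29 for POSTN (ILMN_2766028, limma adjusted p = 0.0485), but all co-culture arrays were below background, so the value only restates the fall in the mono-cultures.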

How the results depend on the processing

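Of 162 combinations of a member probe and a comparison, 32 were called, and 23 of these were called in every alternative that tested the probe. The other 9 lost the call in at least 1 alternative, 22 gained a call in at least 1, and no called value changed sign (0). The TNC probes ILMN_2463181 and ILMN_2463180 kept their FGF2 calls throughout, at 2.47 to 3.11 and 2.25 to 2.86 in the co-cultures and 1.91 to 2.82 and 1.76 to 2.63 in the mono-cultures.

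Quantile normalization without background correction and the cubic spline each called 2 member probes in place of 4 for FGF2 in the co-cultures, 3 in place of 5 in the mono-cultures, 3 in place of 5 for FGF2 against BMP4 in the co-cultures, and 1 in place of 2 for the FGF2 interaction. Both compress the changes of dim probes by their construction, since the background stays in the signal. Detection on all 18 arrays left 14 member probes and gave 3 calls for FGF2 in the mono-cultures, and 1 for the FGF2 interaction. With 1 probe per gene, which leaves 8 member probes, FGF2 gave 2 calls in co-culture and 3 in mono-culture, with 3 and 2 for FGF2 against BMP4, and 5 between culture types. Without a fold threshold 9 were called for FGF2 and 2 for BMP4 in the mono-cultures, 1 for BMP4 in the co-cultures, 11 for FGF2 against BMP4 in the mono-cultures and 4 for the FGF2 interaction. When each array was left out in turn, the count ran from 0 to 1 for BMP4 in the mono-cultures, where SPARC ILMN_2567020 was called without PA6 -GFs replicate 1 or PA6 BMP4 replicate 2, and from 1 to 4 for the FGF2 interaction. The interaction count was 4 without ES/PA6 -GFs replicate 1, and 1 without ES/PA6 FGF2 replicate 1, PA6 -GFs replicate 1 or PA6 FGF2 replicate 2. With the replicate number as a block, FN1 ILMN_2588227 gained its calls for FGF2 in the co-cultures (1.05) and for the FGF2 interaction (1.11), and no other call of a member probe changed. The cause of these differences was not tested beyond what the settings themselves fix. The share of all probes called can change with the setting and is not given here. Member counts under these settings are therefore not to be read against the shares of the main fit. Dim probes such as TNC ILMN_2485085 and POSTN ILMN_2766028 are limited by their signal over background.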
